A study of Mus musculus with 10 samples.

Results

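Drug-metabolizing enzymes of the mouse kidney were followed across 10 kidney RNA-seq libraries from mice that carry human APOL1 risk alleles and from 2 reference groups. The genes were the protein-coding members of the cytochrome P450 families Cyp2, Cyp3 and Cyp4, the glutathione S-transferases (Gst, classes alpha, kappa, mu, pi, theta and omega), the UDP-glycosyltransferases (Ugt) and the sulfotransferases (Sult). The rule that picks the members reads gene symbols only. Of 46517 genes in the count tables, 140 met the rule: 48 Cyp2, 9 Cyp3, 20 Cyp4, 21 Gst, 21 Ugt and 21 Sult genes. A further 23 matching symbols were not protein coding and were left out.

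Cytochromes P450 sit mainly in the endoplasmic reticulum and oxidize drugs, steroids and fatty acids with electrons from NADPH, a step called phase I. Gst, Ugt and Sult enzymes then attach glutathione, a sugar or a sulfate group to the product, which makes it easier to excrete (phase II). In the kidney the proximal tubule is their main site, next to the transporters that take up and secrete organic ions. Cyp2j and Cyp4 enzymes also turn arachidonic acid into epoxides and into 20-HETE, lipids known to act on vessel tone and salt transport, and several members are known to be expressed at different levels in male and female mice.

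The study measured poly(A) RNA of whole kidney with single-end reads. Its 4 genotype labels are G1-APOL1 (2 libraries) and G2-APOL1 (2 libraries), both named as risk alleles, wild type (single mutant) (3 libraries), and Control (3 libraries). G1 and G2 are variants of human APOL1, a lipoprotein component that mice lack; the study's title places the variants in podocytes, the filter cells of the glomerulus. The promoter that drives the transgene, the meaning of "single mutant", age, sex, strain background, any inducing drug and the number of mice are not stated by the labels, and the human transcript was not analysed. Nothing in the labels says that libraries of 1 group came from separate mice, so the p-values speak only to how much these libraries vary, which may in part be technical. Library totals ran from 27596391 to 34815153 counts. Levels below are CPM (counts per 1000000) on library sizes scaled with TMM, so that 3 counts equal 0.0747 to 0.119 CPM, and the libraries of a group are always given in the order replicate 1, 2, 3.

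Kidney markers were present: Umod, of the thick ascending limb, stood at 2267 to 4027 CPM and Slc34a1, of the proximal tubule, at 1251 to 8188 CPM. Of 6 adrenal markers 2 were at 0 in every library, and the 6 summed to 2.05 to 3.06 CPM. The 6 adipocyte markers were uneven, at 40.1 and 5.54 summed CPM in G1 and 2.57 and 82.2 in G2. They summed to 86, 70.7 and 4.22 CPM in wild type (single mutant) and 79.5, 2.82 and 224 in Control. Their part in the members' results was not tested. A further pair of features cut across the labels. G1 replicate 2 had 359.7 CPM of Xist, the X-inactivation RNA of female cells, and 0.202 CPM of the Y-linked Ddx3y, whereas the other 9 libraries had 0.195 to 1.13 CPM of Xist and 36.1 to 51.7 CPM of Ddx3y; the labels give no sex. Of the 6 reference libraries, those with titles that start with NA_ (wild type (single mutant) replicate 3, Control replicates 1 and 2) stood apart from the other 3: in 23 of the 86 members that could be tested, all 3 lay above the others (26.7%, against 12.9% of all genes tested), and in 9 all lay below (10.5%, against 12.5%). Results that rest on these libraries are given with and without them.

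The whole set took a smaller share of kidney RNA in the risk-allele libraries. Members made up 0.744% and 0.619% of counts in G1 and 0.964% and 0.978% in G2, against 1.58%, 1.69% and 1.46% in wild type (single mutant) and 1.69%, 1.54% and 1.71% in Control. The groups did not overlap. Summed CPM was 2.4-fold higher in Control than in the risk-allele libraries for all members, 3.24-fold for Cyp4, 2.87-fold for Ugt, 2.62-fold for Cyp2 and 1.7-fold for Sult. The Cyp4 sum was mostly Cyp4b1, with a mean of 5357 of 6388 CPM in Control. Cyp4a genes summed to means of 1128 CPM in G1, 675 in G2 and 963 in Control, and Cyp4f genes to 68, 56.1 and 59. The median log2 fold change of tested Cyp4 members against Control was -0.02. For Gst the sums overlapped, at 1710.3 to 1808 CPM in the risk-allele libraries and 1736 to 2210.2 CPM in Control. In whole-kidney RNA, fewer cells of a type and less RNA per cell cannot be told apart.

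**Figure D1:**
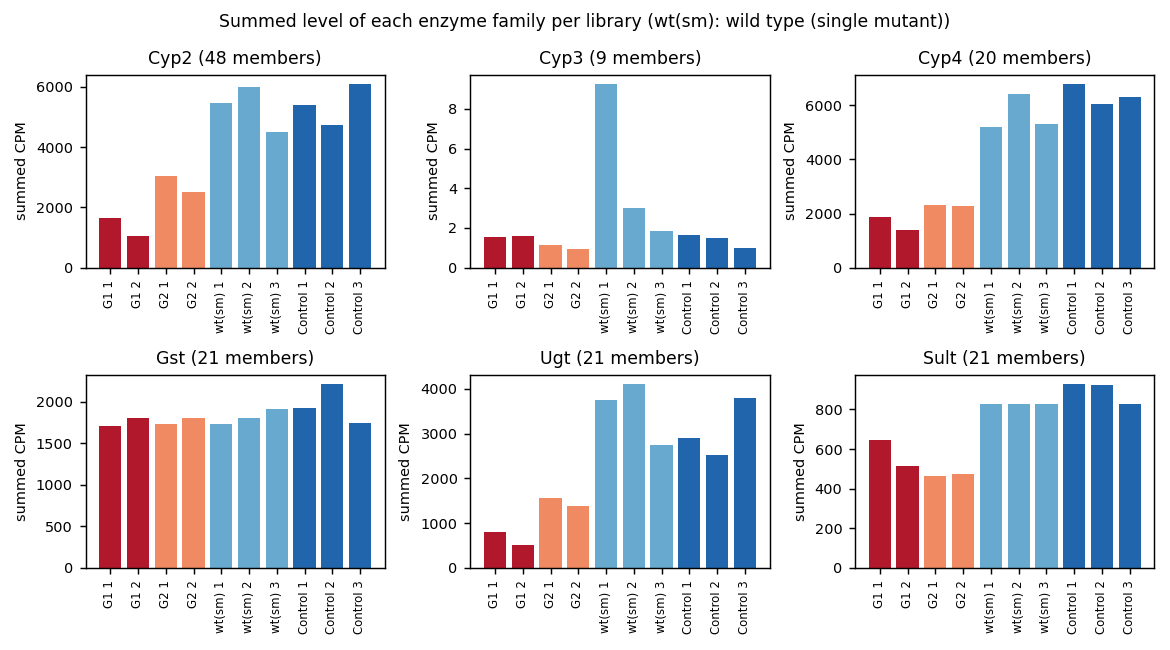
Bars give the summed CPM of all members of each enzyme family in each of the 10 libraries, on axes that start at 0; wt(sm) is wild type (single mutant). The 4 risk-allele libraries are below all 6 reference libraries for Cyp2, Cyp4, Ugt and Sult, while the Gst sums lie between 1710.3 and 2210.2 CPM in every library and the Cyp3 sum reaches 9.27 CPM in 1 reference library.

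Expression was concentrated in few genes. Of the 140 members, 86 passed the filter on low counts and were tested, 70 of them averaging 1 CPM or more and 25 averaging 100 CPM or more; of the 54 not tested, 10 had no count in any library and none had more than 79 counts in all 10 together. Per length, as the mean Control level in RPKM (CPM divided by exon length in kilobases), Cyp4b1 led with 2375 RPKM and held 84.5% of the Cyp4 total. Leading members of other families were Cyp2e1 (865 RPKM), Cyp2j5 (712 RPKM), Ugt2b38 (526 RPKM), Ugt3a2 (489 RPKM), Gstm1 (427 RPKM) and Sult1d1 (279.7 RPKM). Cyp3 enzymes, the main drug oxidases of liver, were near the detection limit: the highest, Cyp3a13, reached 0.299 RPKM.

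To ask how the risk alleles differ from Control, the mean of the G1 and G2 groups was set against the Control mean. Of the 86 tested members, 9 rose, 30 fell and 47 did not pass (edgeR, quasi-likelihood F test, with p-values adjusted by Benjamini and Hochberg over 17823 genes and a threshold of 0.05). Among all genes tested 19.3% rose and 18% fell, against 10.5% and 34.9% of the members, whose median log2 fold change was -0.47 beside 0.00 over all genes. In 7 members all 4 risk-allele libraries lay above all Control libraries, and in 28 all lay below (20.7% and 17.7% of all genes). By family, 1 member rose and 14 fell of 24 Cyp2 genes tested, 0 and 1 of 2 Cyp3, 3 and 4 of 15 Cyp4, 2 and 2 of 20 Gst, 1 and 7 of 15 Ugt, and 2 and 2 of 10 Sult. Scaling by library totals alone raised the median of all genes by 0.27 on the log2 scale and gave 13 members higher and 26 lower, when 33.9% of all genes were higher and 8.98% lower.

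**Figure D2:**
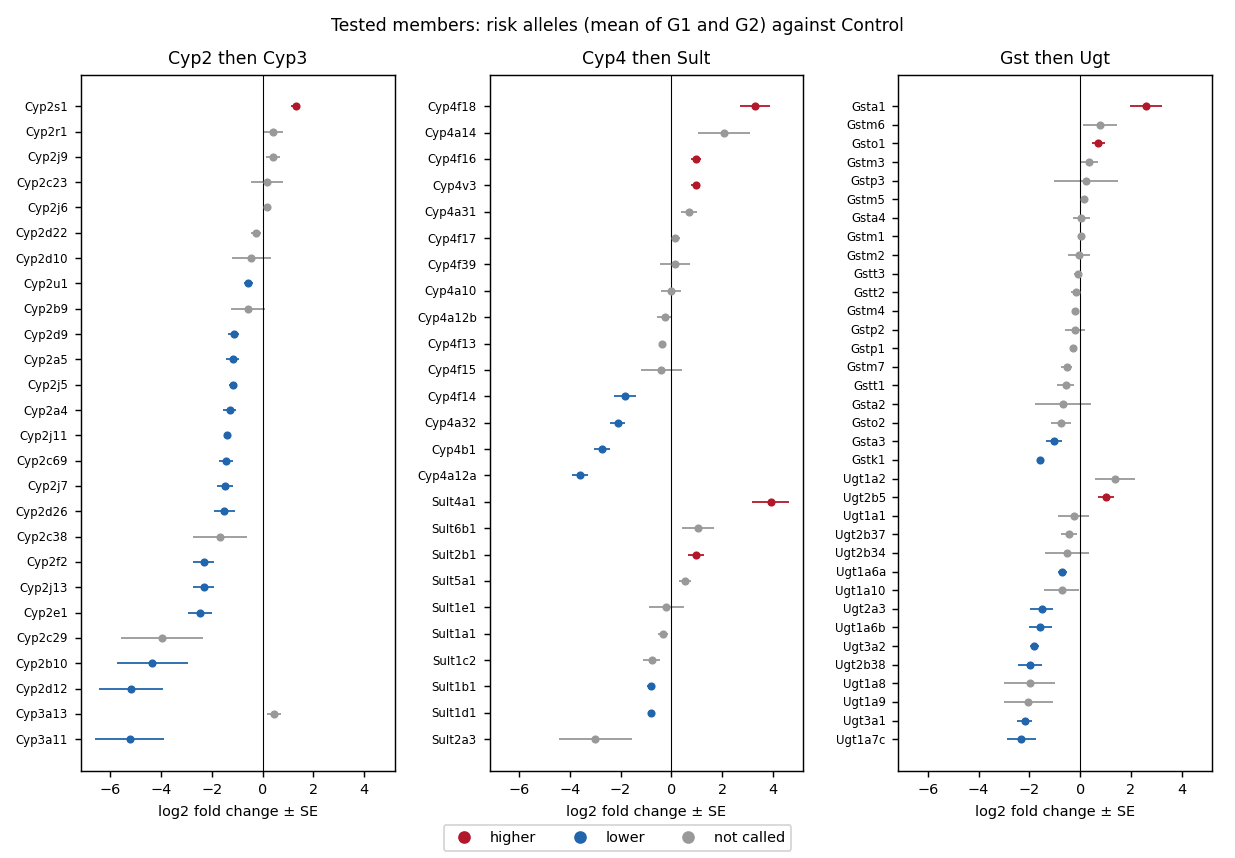
Points give the log2 fold change of the risk-allele mean over Control for the 86 tested members, with the standard error as a bar; red and blue mark members called higher or lower and grey those not called. Of the members called lower, 14 are Cyp2 and 7 are Ugt genes, while 16 of 20 Gst members are grey; the value of Cyp3a11 rests on 2 counts in the risk-allele libraries and depends on the fit's prior count.

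Markers of several cell types moved in the same comparison. All 15 markers of the S1 and S2 segments of the proximal tubule fell, with a median log2 fold change of -1.60. Their summed level was 7433 to 10650.1 CPM in the risk-allele libraries and 22727 to 25746 CPM in Control. Of 9 markers of the S3 segment, 5 fell and 1 rose, and of 10 markers of other nephron segments and podocytes 4 fell and 0 rose (3019.5 to 5459.8 summed CPM against 4913 to 6154). Fibroblast and endothelial markers gave 3 higher and 1 lower of 9 (631 to 1607 summed CPM against 549 to 639.8). All 10 tubular injury markers rose, from 829.7 to 1317 summed CPM in Control to 5006 to 30195, and 7 of 10 immune cell markers rose, from 83.4 to 91.4 summed CPM to 148 to 214. The part of these shifts in the members' results was not tested.

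Short promoter sequences are shown for members that fell, because 1 of 4 sequences searched recurred among them. RefSeq promoters (GRCm38.p6, 250 bases before to 50 after the start) were matched for 117 of 140 members and searched on both strands for GTTAAT (reverse complement ATTAAC), a core site of the HNF1 factors that act in proximal tubule and liver. It was present in 11 of 24 members that fell, 0 of 8 that rose and 5 of 38 not called, and in 8.24% of all 27025 genes with a promoter. Among the 11, the calls of Cyp2a4, Cyp2a5, Cyp2c69, Cyp2d26, Cyp4f14, Gsta3, Ugt1a6a and Ugt2a3 were lost without the NA_-titled libraries. That setting leaves Control with 1 library. Cyp4a32, also among the 11, was not called with its near copies summed (log2 value 0.19 ± 0.27). The motifs were chosen with these values known and the match is a description only. Each line below gives the gene's sense strand, 5′ to 3′, with the motif in capitals; the 2 Cyp2a genes, near copies of each other, have the same letters here.
Cyp2a4, chr7:26307014-26307055, plus strand: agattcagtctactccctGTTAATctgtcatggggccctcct
Cyp2a5, chr7:26835160-26835201, plus strand: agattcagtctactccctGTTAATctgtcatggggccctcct
Cyp2d26, chr15:82794312-82794353, minus strand: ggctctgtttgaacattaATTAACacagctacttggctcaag
Ugt3a1, chr15:9279688-9279729, plus strand: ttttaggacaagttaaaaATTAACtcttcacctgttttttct
Sult1d1, chr5:87569062-87569103, minus strand: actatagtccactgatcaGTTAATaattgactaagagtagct
The same search was made for 3 other motifs. CAAAGT, a core site of HNF4, was in 7 of 24 members that fell, 2 of 8 that rose, 10 of 38 not called and 16.1% of all genes. TGACNNNGC, the core of the antioxidant response element, was in 2 of 24, 1 of 8, 4 of 38 and 14.0%. GCGTG, the core bound by the aryl hydrocarbon receptor, was in 5 of 24, 4 of 8, 9 of 38 and 35.2%.

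Among Cyp2 genes the falls took in the most abundant members. Cyp2e1 (chr7:140763739-140774987, GRCm38), which oxidizes ethanol and acetaminophen, had 268 and 61.6 CPM in G1, 803 and 612 in G2, 1838, 2509.6 and 1140.2 in wild type (single mutant), and 1660.1, 1374 and 2564 in Control. All risk-allele libraries were below all references, G1 lowest, and the log2 fold change against Control was -2.45 ± 0.47 (SE, adjusted p = 0.00399 by edgeR). Cyp2j5 (chr4:96628773-96664154), an abundant arachidonic acid epoxygenase of mouse kidney, had 668 and 513 CPM in G1, 1024 and 835 in G2, and 1679, 1539 and 1791 in Control. It fell by 1.17 ± 0.14 on the log2 scale (adjusted p = 0.000378), again without overlap. Its neighbour Cyp2j13 had 74.5 and 15.6 CPM in G1, 214 and 192 in G2, and 469, 397 and 559.5 in Control, a fall of 2.32 ± 0.43 on the log2 scale (adjusted p = 0.0033). The 8 Cyp2j genes lie side by side on chromosome 4 and did not move alike. Of 6 tested, 4 fell, while Cyp2j6 gave 0.16 ± 0.15 and Cyp2j9 gave 0.41 ± 0.27 on the log2 scale, neither called.

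Cyp2f2, known for activating naphthalene in lung, was rare, at 0.577 and 0.202 CPM in G1, 0.974 and 1.54 in G2, and 3.09, 4.56 and 2.9 in Control. It fell by 2.32 ± 0.43 on the log2 scale (adjusted p = 0.00315). Cyp2d12 had the most negative log2 value of the named Cyp2 genes, -5.18 ± 1.27 (adjusted p = 0.0121), and the least even references. Its levels were 1.47 and 3.65 CPM in G1, 2.6 and 5.33 in G2, 10.3, 8.37 and 139 in wild type (single mutant), and 171, 169.8 and 8.83 in Control. The 3 high values are the NA_-titled libraries. Without them the log2 fold change was -1.47 ± 0.50 and was no longer called. The call was also lost without G1 replicate 1, without G2 replicate 1 and under limma-voom, while DESeq2 gave no adjusted p for this gene. Cyp2a4 and Cyp2a5, a steroid and a coumarin hydroxylase with 98.4% identical coding sequences, fell when their counts were summed, by 1.26 ± 0.25 on the log2 scale. Cyp2a4 alone was lowest in G1, at 145 and 57.6 CPM, with 533 and 442 in G2 and 626, 464 and 545 in Control.

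The single Cyp2 gene that rose was Cyp2s1 (chr7:25802475-25816913), a P450 of epithelia outside the liver that the aryl hydrocarbon receptor induces. It had 65.2 and 59.1 CPM in G1, 31.3 and 22.7 in G2, 20.7, 15 and 18.1 in wild type (single mutant), and 16.3, 20.7 and 13 in Control. The log2 fold change was 1.30 ± 0.19 (adjusted p = 0.00102) and no risk-allele library overlapped a reference. Of its exonic 100-base windows, 5.26% recurred in another gene.

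In the Cyp3 family 2 of 9 genes were tested. Cyp3a11, a major drug oxidase of mouse liver, had 2 counts in the 4 risk-allele libraries together and 33 in the 3 Control libraries. The ratio of the rates was 0.0332, with an exact 95% interval of 0.00386 to 0.13 that covers counting error only, and the gene was called lower (adjusted p = 0.0189 by edgeR); the call was lost without Control replicate 1 or without the NA_-titled libraries. Cyp3a13 was not called at 0.44 ± 0.28 on the log2 scale (adjusted p = 0.239), with 1.55 and 1.44 CPM in G1, 1.14 and 0.822 in G2 and 1.01, 1.09 and 0.557 in Control.

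Cyp4 enzymes hydroxylate fatty acids, and this family split. Cyp4b1 (chr4:115624725-115647723), which also activates several protoxins, had 614 and 207 CPM in G1, 1649 and 1482 in G2, 4293, 5460.0 and 3998 in wild type (single mutant), and 5825, 4924 and 5322 in Control. It fell by 2.74 ± 0.32 on the log2 scale (adjusted p = 0.00036), the groups apart and G1 below G2. Cyp4a12a, an androgen-dependent enzyme that makes 20-HETE, had 15.1 and 8.42 CPM in G1, 108 and 97.3 in G2, 269, 582 and 338 in wild type (single mutant), and 347, 355 and 559.9 in Control. The log2 fold change was -3.60 ± 0.32 (adjusted p = 0.000113), and -3.18 ± 0.28 with its near copy Cyp4a12b added. Without G1 replicate 2, the library with high Xist, Cyp4a12a still gave -3.41 ± 0.37 and Cyp4b1 -2.45 ± 0.19, both called lower. Cyp4f14 fell by 1.83 ± 0.43 on the log2 scale at 1.11 to 1.8 CPM in Control, a call lost without the NA_-titled libraries.

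Other Cyp4 genes rose. Cyp4f18 (chr8:71988482-72009626), the leukotriene B4 hydroxylase of mouse neutrophils, had 3.07 and 3.5 CPM in G1, 4.81 and 1.64 in G2, 0.376, 0.183 and 0.818 in wild type (single mutant), and 0.486, 0.217 and 0.279 in Control. It rose by 3.29 ± 0.58 on the log2 scale (adjusted p = 0.00266 by edgeR), beside the rise of 7 of 10 immune markers given above. The part of immune cells in the Cyp4f18 values was not tested. Cyp4v3, the mouse counterpart of the gene mutated in Bietti crystalline dystrophy, had 29.1 and 22 CPM in G1, 12.8 and 12.8 in G2, and 10.4, 9.2 and 8.28 in Control, a log2 fold change of 0.96 ± 0.17 (adjusted p = 0.00242). Cyp4f16 rose by 0.97 ± 0.21 on the log2 scale (adjusted p = 0.00696), from 6.56 to 9.89 CPM in Control to 12.9 to 21.3 in the risk-allele libraries.

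The PPARα-inducible fatty acid hydroxylases of the family did not pass. Cyp4a10 had 576 and 468 CPM in G1, 281 and 232 in G2 and 416, 498 and 203 in Control. Its log2 fold change was -0.02 ± 0.38 (adjusted p = 0.967 by edgeR). Without the NA_-titled libraries, the log2 value of Cyp4a10 was 0.85. Cyp4a14, singled out after its values were seen, had 442 and 448 CPM in G1, 48 and 172 in G2, 35.6, 9.42 and 148 in wild type (single mutant), and 46.8, 102 and 7.72 in Control. Its log2 fold change of 2.08 ± 1.02 was not called, and was 4.84 ± 1.13 and called once the NA_-titled libraries were left out. Cyp4a32 was called lower at -2.11 ± 0.29 (adjusted p = 0.000788), but it is a near copy of Cyp4a10 (97.2% identity) at 3.5 to 5.43 CPM in Control; with Cyp4a10 and Cyp4a31 added, the log2 value was 0.19 ± 0.27 and was not called.

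**Figure D3:**
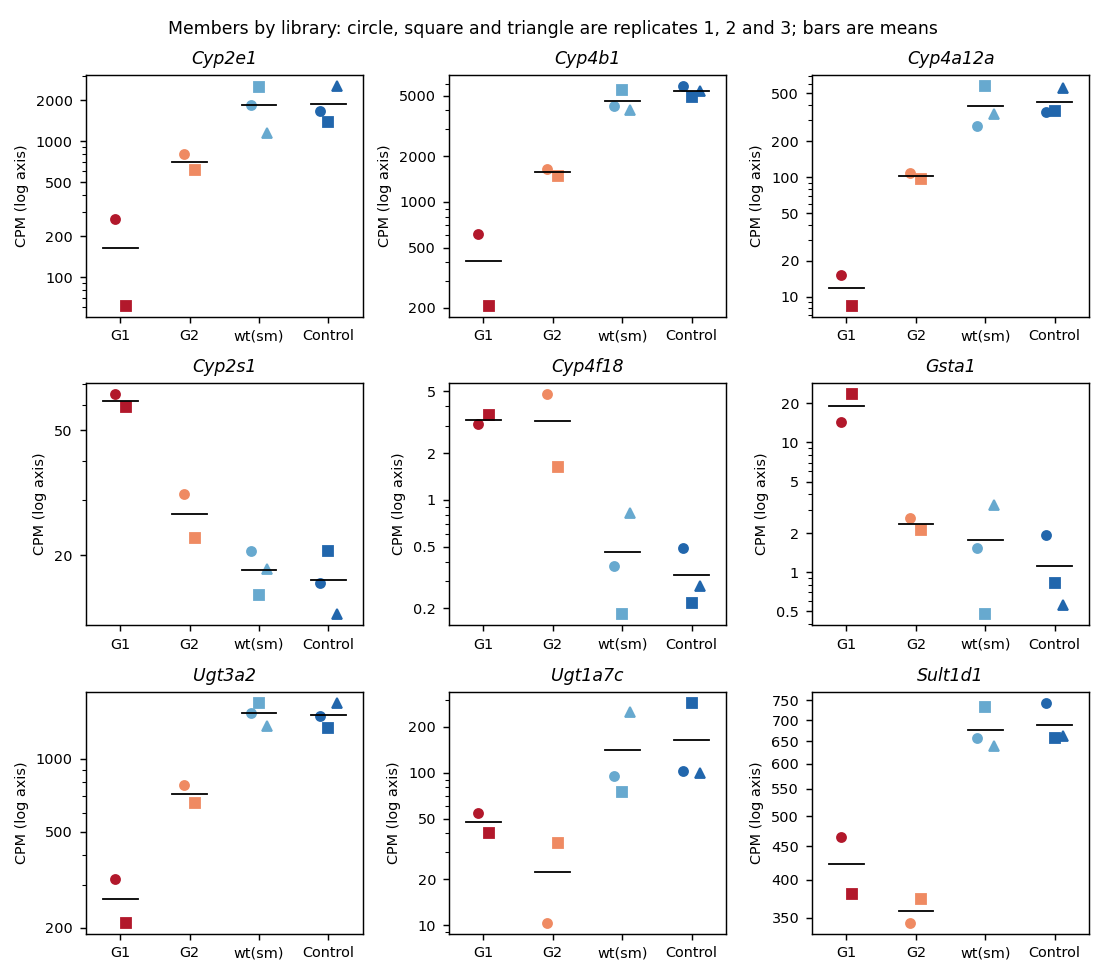
Each panel gives 1 member's CPM on a log axis, with a circle, square and triangle for replicates 1, 2 and 3 and a bar for the group mean; wt(sm) is wild type (single mutant). Cyp2e1, Cyp4b1, Cyp4a12a, Ugt3a2 and Sult1d1 are lower in all 4 risk-allele libraries than in all 6 references, Cyp2s1 and Cyp4f18 are higher in all 4, and Gsta1 in G2 (2.63 and 2.12 CPM) lies below 1 wild type (single mutant) library at 3.3 CPM.

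Of the 20 glutathione S-transferases tested, 16 were not called. Gstm1 (chr3:108012255-108017973), the most abundant Gst, had 509.8 and 554 CPM in G1, 772 and 796 in G2, 692, 724 and 587 in wild type (single mutant), and 551, 612 and 725 in Control, so the groups overlapped (log2 fold change 0.04 ± 0.12, adjusted p = 0.832). Gstm5 gave 0.15 ± 0.14 (adjusted p = 0.418). Scaled by library totals alone, both were called higher, at 0.32 ± 0.11 and 0.42 ± 0.13 on the log2 scale. None of the 7 Gstm, 3 Gstp or 3 tested Gstt genes was called under TMM scaling.

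The lowest adjusted p among Gst genes was that of Gstk1 (chr6:42245935-42250447), the kappa-class enzyme of mitochondria and peroxisomes. It had 46.3 and 46.3 CPM in G1, 79.5 and 88.1 in G2, 141, 149 and 136 in wild type (single mutant), and 206, 207 and 143 in Control, and fell by 1.57 ± 0.13 on the log2 scale (adjusted p = 8.7e-05) with no overlap. Gsto1, an omega-class enzyme that reduces dehydroascorbate and arsenic acids, was high in G1 alone, at 95.3 and 99.4 CPM, with 28 and 32.2 in G2 and 35.4, 38.6 and 25.3 in Control. Its log2 fold change of 0.71 ± 0.25 was close to the threshold (adjusted p = 0.0498), and the call was lost when any of the 7 G1, G2 or Control libraries was left out. Gsta3 fell by 1.03 ± 0.33 on the log2 scale (adjusted p = 0.0355) with overlap between the groups, at 45.8 and 48.6 CPM in G1, 50.8 and 73.5 in G2 and 120.3, 144 and 66.1 in Control; without the NA_-titled libraries the value was -0.29 ± 0.24 and was not called, and the call was also lost under library totals alone and without either G1 library, G2 replicate 1, Control replicate 1 or Control replicate 2.

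Alpha-class genes Gsta1 and Gsta2 are near copies (97.6% identity) and depended on how their reads were treated. Gsta1 had 14.5 and 23.6 CPM in G1, 2.63 and 2.12 in G2, 1.54, 0.475 and 3.3 in wild type (single mutant), and 1.94, 0.833 and 0.557 in Control, and was called higher at 2.58 ± 0.63 on the log2 scale (adjusted p = 0.0119). Of its 100-base windows 81.8% recur in another gene. Gsta2 had 172 and 216 CPM in G1, 30.7 and 21.3 in G2, 36, 10.3 and 219.6 in wild type (single mutant), and 40, 285 and 11.9 in Control (-0.66 ± 1.10, not called). Summed, the pair gave -0.55 ± 1.08 and was not called. The high Gsta2 values among the references, 219.6 and 285 CPM, are in NA_-titled libraries.

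Of 15 glycosyltransferases tested, 7 fell. Ugt3a2 (chr15:9335550-9370955) had 318 and 209.8 CPM in G1, 779 and 654 in G2, 1546, 1709 and 1372 in wild type (single mutant), and 1501, 1339 and 1711 in Control, and fell by 1.80 ± 0.17 on the log2 scale (adjusted p = 0.000133). Its neighbour Ugt3a1, with the ATTAAC match shown above, had 26.1 and 12.4 CPM in G1, 73.2 and 87 in G2, and 162, 135 and 238 in Control, a fall of 2.18 ± 0.30 on the log2 scale (adjusted p = 0.000829). These enzymes use other sugars than the glucuronic acid of the Ugt1 and Ugt2 enzymes, and they share no 100-base window with another gene (0.0% for both).

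Ugt2b38, a glucuronosyltransferase, had 204 and 64.9 CPM in G1, 507 and 457 in G2, 1394, 1753 and 589.6 in wild type (single mutant), and 844, 644 and 1498 in Control, and fell by 1.97 ± 0.47 on the log2 scale (adjusted p = 0.0113). Its near copy Ugt2b5 (97.0% identity) was called higher at 1.01 ± 0.33 (adjusted p = 0.0392), with 6.9 and 6.32 CPM in G1, 5.42 and 2.47 in G2, 7.94, 3.65 and 5.66 in wild type (single mutant), and 2.64, 2.21 and 2.75 in Control. That call overlapped between groups, was lost when any of the 7 G1, G2 or Control libraries except G2 replicate 2 was left out, and turned to -1.93 ± 0.46, called lower, with the pair summed.

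Genes of the Ugt1a locus (chromosome 1, 88055388 to 88220002) have their own first exons and share the others, so reads can only partly be assigned: 68.8% of the windows of Ugt1a7c and 100.0% of those of Ugt1a6a recur in another gene. Summed over the locus, levels were 187 and 168 CPM in G1, 35.8 and 63 in G2, 276, 220.3 and 359 in wild type (single mutant), and 256, 303 and 227 in Control. All 4 risk-allele libraries were below all references, G2 lowest. Ugt1a7c had 54.4 and 40.5 CPM in G1, 10.4 and 34.6 in G2, and 103, 287 and 100.1 in Control (log2 fold change -2.32 ± 0.58, adjusted p = 0.0129), a call lost without G1 replicate 2 or without the NA_-titled libraries. Control replicate 2 differed from the other 2 Control libraries in this locus, a feature singled out after its values were seen: Ugt1a10 had 112, 5.79 and 88.6 CPM, Ugt1a9 17.4, 0.109 and 15.2 CPM and Ugt1a8 10.2, 0 and 9.47 CPM in Control replicates 1, 2 and 3. None of these 3 genes was called, and all 3 were called lower when Control replicate 2 was left out.

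Sulfotransferase RNA was mostly Sult1d1 (chr5:87554645-87569027), which sulfates catecholamines in mice and held 71.4% of the Control Sult level per length. It had 464 and 381 CPM in G1, 344 and 374 in G2, 658, 733 and 638 in wild type (single mutant), and 744, 657 and 662 in Control, and fell by 0.82 ± 0.11 on the log2 scale (adjusted p = 0.000583) with no overlap. Sult1b1, which acts on thyroid hormones, fell by 0.81 ± 0.16 on the log2 scale (adjusted p = 0.00472), with 2.82 to 3.15 CPM in the risk-allele libraries and 4.96, 5.21 and 5.57 CPM in Control. Sult1c2 was the next most abundant and was not called at -0.78 ± 0.34 (adjusted p = 0.098).

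A rise was seen in Sult2b1, which sulfates cholesterol and pregnenolone. It had 5.03 and 6.6 CPM in G1, 3.6 and 5.58 in G2, 0.992, 2.41 and 2.04 in wild type (single mutant), and 3.02, 1.85 and 3.06 in Control (log2 fold change 0.97 ± 0.33, adjusted p = 0.0482). The groups did not overlap, but the call was lost when any of the 7 G1, G2 or Control libraries except G2 replicate 1 was left out. Sult4a1, a brain sulfotransferase below the level at which genes were named and added after its values were seen, had 0.262 and 0.706 CPM in G1, 3.67 and 1.84 in G2, 0.103, 0.11 and 0.204 in wild type (single mutant), and 0.139, 0 and 0.0796 in Control, and was called higher at 3.91 ± 0.72 (adjusted p = 0.00315).

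**Figure D4:**
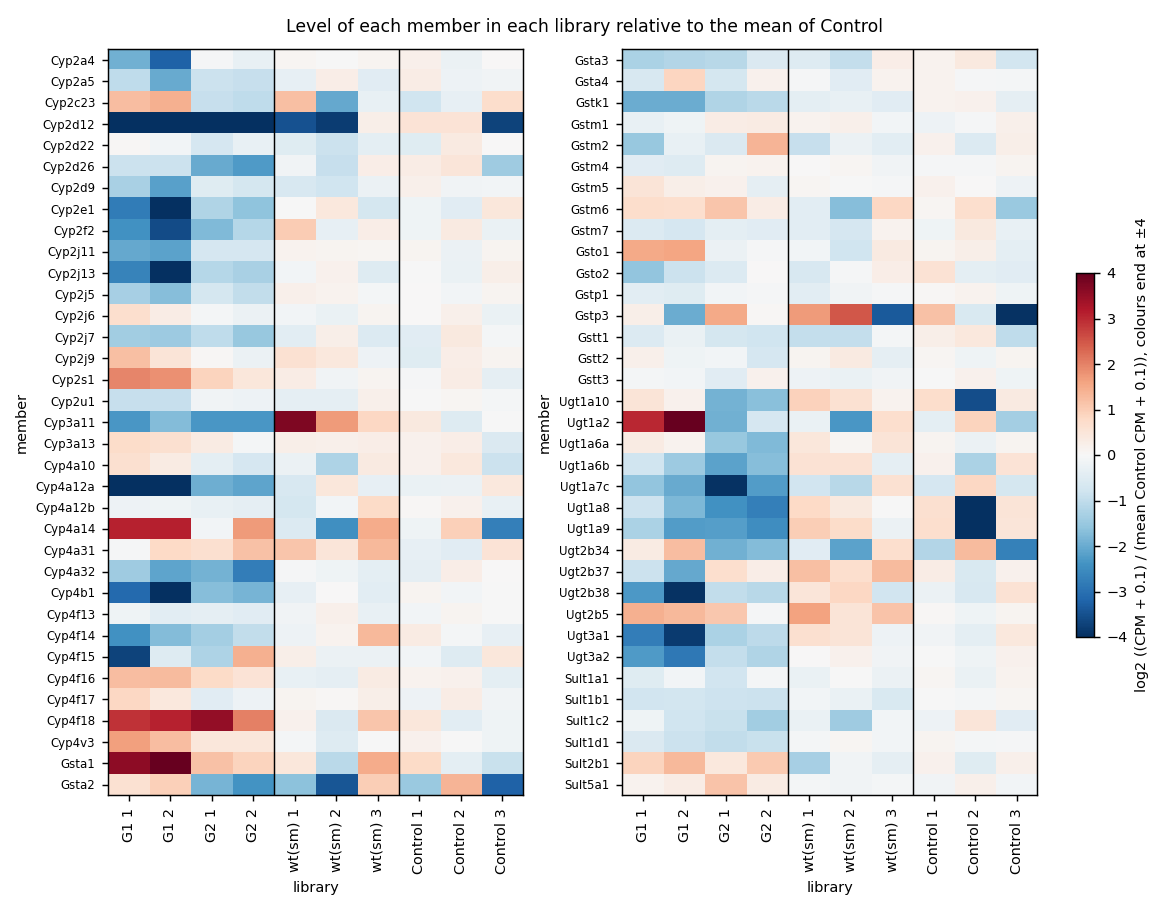
Colours give, for the 70 tested members with a mean of at least 1 CPM, the log2 ratio of each library (columns) to the mean of Control, after adding 0.1 CPM to both; red is above and blue below the Control mean, and colours end at 4 in either direction. The Cyp2e1, Cyp2j13, Cyp4b1 and Ugt3a2 rows are blue in all 4 risk-allele libraries, the Gstm1 row is pale throughout, and Cyp2d12, Cyp4a14 and Gsta2 differ among the 3 Control libraries.

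Other genes of drug handling were examined in lists made by function. Of 15 partners and regulators of P450 enzymes, 9 fell and 1 rose. Among them Rxra, the common partner of nuclear receptors, fell by 0.89 ± 0.09 on the log2 scale (adjusted p = 0.0002 by edgeR). Hnf4a, a transcription factor of proximal tubule and liver, fell by 1.11 ± 0.15 (adjusted p = 0.000601 by edgeR). Cyb5b, a cytochrome b5 gene, fell by 0.93 ± 0.11 (adjusted p = 0.000474 by edgeR). Hnf4a levels were 493 and 442 CPM in G1, 510.2 and 385 in G2, 1014, 1084 and 765 in wild type (single mutant) and 991, 1008 and 969 in Control, without overlap. Of 22 other phase II genes, 12 fell and 0 rose, among them Acsm2 and Glyat of amino acid conjugation (-1.98 ± 0.29 and -1.23 ± 0.17) and Gstz1 of tyrosine breakdown (-1.03 ± 0.13). Other phase I genes gave 11 lower and 3 higher of 23 tested: the carboxylesterase Ces1d fell by 2.09 ± 0.17 and the flavin monooxygenases Fmo5 and Fmo2 by 2.09 ± 0.24 and 1.59 ± 0.15 on the log2 scale.

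Of 24 transporters, 12 fell and 2 rose; the carnitine carrier Slc22a5 fell by 1.19 ± 0.14 on the log2 scale, while the prostaglandin carrier Slco2a1 rose by 1.21 ± 0.13. The list of the NRF2 pathway and glutathione metabolism, the usual inducers and substrate of Gst enzymes, gave 6 lower, 2 higher and 11 not called of 19 tested. Ggt1, which splits extracellular glutathione, fell by 1.44 ± 0.20 and Gpx3, the plasma glutathione peroxidase made by kidney, by 0.89 ± 0.20 on the log2 scale. Pgd, an NADPH source, rose by 0.53 ± 0.08, from 90 to 103 CPM in Control to 122 to 156 in the risk-allele libraries. All values in these lists are from the same edgeR comparison with Control, and their medians were -0.62, -0.62, -1.07, -0.76 and -0.22 for partners, phase II, phase I, transporters and NRF2 genes, beside 0.00 over all genes.

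Set against wild type (single mutant), the risk alleles gave 8 members higher (9.3%, with 20.6% of all genes), 29 lower (33.7%, with 19.3%) and 49 not called, with a median log2 fold change of -0.33. This comparison uses the same 4 risk-allele libraries as the one with Control, so the pair is not independent. Library totals alone gave 13 higher and 27 lower, with 34.9% of all genes higher and 9.59% lower. Named falls were in Cyp4a12a (-3.51 ± 0.32, adjusted p = 0.000113 by edgeR), Cyp2f2 (-2.75 ± 0.43, adjusted p = 0.00119), Ugt3a1 (-2.53 ± 0.31, adjusted p = 0.000398) and Cyp2d12 (-4.04 ± 1.22, adjusted p = 0.0275). The Cyp2d12 call was lost when any of the 4 risk-allele libraries or wild type (single mutant) replicate 3 was left out. Cyp3a11, with 2 counts against 257, had a ratio of 0.0045 (exact 95% interval 0.000542 to 0.0164). Of 9 hepatocyte markers tested, 6 fell in this comparison, with a median log2 fold change of -3.79, and the 10 markers summed to 193 and 159.9 CPM in G1 and to 345 and 7.52 CPM in G2. Their part in the Cyp3a11 ratio and in the other falls of this comparison was not tested. Among called members averaging 1 CPM or more, the largest rises were in Cyp4f18 (2.81 ± 0.56), Gsta1 (1.91 ± 0.60, but -0.22 ± 1.09 when summed with Gsta2), Sult2b1 (1.51 ± 0.34), Cyp2s1 (1.19 ± 0.19) and Cyp4v3 (1.15 ± 0.17). The Gsta1 call was lost without G1 replicate 2, G2 replicate 1, or wild type (single mutant) replicate 1 or 2. Ugt3a1 gave 275, 255 and 153 CPM and Cyp2f2 7.25, 2.78 and 4.22 CPM in the 3 wild type (single mutant) libraries.

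Between the reference groups, wild type (single mutant) and Control, 0 of 86 members and 0% of all genes were called by edgeR; 8 members and 4.06% of all genes were under 0.05 before adjustment, and DESeq2 and limma-voom also called 0 members (DESeq2 0.0786% of all genes, limma-voom 0%). The members nearest to a call were Ugt2b5 (log2 difference 1.18 ± 0.35), Cyp3a11 (2.87 ± 0.85) and Ugt2b37 (1.07 ± 0.34), each with an adjusted p = 1 by edgeR. Ugt2b37 had 240.0, 164 and 249 CPM in wild type (single mutant) and 127, 67.7 and 117 in Control. Cyp3a11 had 6.57, 1.53 and 0.784 CPM in wild type (single mutant) and 0.555, 0.254 and 0.398 in Control. Liver markers were uneven in the same libraries: Alb (albumin) was at 199, 8.73 and 22.1 CPM in wild type (single mutant) and 11.2 to 12.2 CPM in Control, and the 10 hepatocyte markers summed to 664, 334 and 33 CPM against 20.5 to 22.1 CPM. In replicate 2 Ttr alone made 314 CPM of that sum. The marker Cyp7a1 was at 0 in 8 of the 10 libraries, and the part of liver RNA in the Cyp3a11 values was not tested.

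Between the risk alleles, G2 against G1, 10 members were higher (11.6%, with 3.84% of all genes), 8 lower (9.3%, with 2.88%) and 68 not called. The named higher members were Cyp4a12a (3.12 ± 0.43, adjusted p = 0.0107 by edgeR), Cyp2a4 (2.27 ± 0.36, adjusted p = 0.0145), Ugt3a1 (2.05 ± 0.41, adjusted p = 0.0264), Cyp4b1 (1.93 ± 0.42, adjusted p = 0.0336) and Ugt2b37 (1.82 ± 0.42, adjusted p = 0.0388). Named lower members were Ugt1a2 (-5.25 ± 1.13), Ugt1a6a (-1.91 ± 0.23), Gsto1 (-1.69 ± 0.33), Cyp2s1 (-1.20 ± 0.24) and Cyp4v3 (29.1 and 22 CPM in G1, 12.8 and 12.8 in G2). Ugt1a2 had 12.9 and 34.9 CPM in G1 and 0.325 and 0.897 in G2, against 0.517 to 2.86 CPM in Control. Ugt1a6a had 8.86 and 7.91 CPM in G1 and 2.44 and 2.04 in G2, against 6.01 to 7.7 CPM in Control. For Gsto1, Cyp2s1, Cyp2a4 and Ugt1a2, the library values given for each show G1 farther from Control than G2. For Ugt1a6a they show the reverse, with G2 farther from Control than G1. Tubular injury markers summed to 21059 and 30195 CPM in G1 and 8804 and 5006 in G2, with 4 of 10 lower in G2 and 0 higher. S3 markers summed to 3604 and 2944 CPM in G1 and 8831 and 7399 in G2, with 3 of 9 higher and 1 lower. Of 15 S1 and S2 markers, 2 were higher and 3 lower. The part of these shifts in the members' results was not tested.

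**Figure D5:**
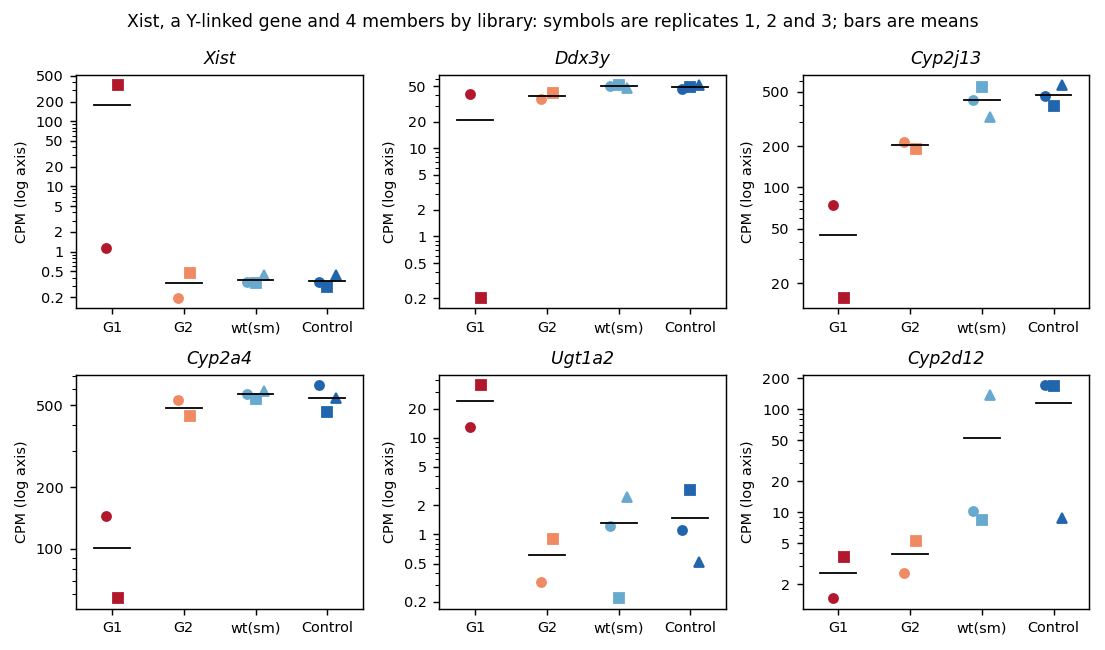
Each panel gives CPM on a log axis for Xist, the Y-linked Ddx3y and 4 members, with a circle, square and triangle for replicates 1, 2 and 3 and a bar for the group mean; wt(sm) is wild type (single mutant). G1 replicate 2 has the highest Xist and lowest Ddx3y and is also the lowest library for Cyp2j13 (15.6 CPM) and Cyp2a4 (57.6 CPM), G1 replicate 1 lies below Control in both, and the 3 references at 139 to 171 CPM of Cyp2d12 are the NA_-titled ones.

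The G2 against G1 calls rested on 4 libraries, of which G1 replicate 2 differed from the rest in Xist and Y-linked genes. That library was the lowest of all 10 in 19 members (22.1%, against 16.5% of all genes tested) and the highest in 10 (11.6%, against 13.2%). Without it, G1 has 1 library, which is assumed to vary like the other groups, and few genes of any kind were called: 0 of the 18 calls were kept (0.0596% of all genes higher and 0.0596% lower), and with a term for the Xist and Y-gene difference 2 were kept, Cyp2a4 (1.75 ± 0.22) and Cyp2j11 (1.37 ± 0.17), with 0.107% of all genes called higher and 0.0673% lower. The Xist and Y-gene term is set for G1 replicate 2 alone, so that fit is nearly the same as leaving this library out and is no separate check. The log2 values without G1 replicate 2 were 2.71 ± 0.53 for Cyp4a12a, 1.69 ± 0.23 for Cyp2a4, 1.30 ± 0.27 for Cyp4b1, -2.04 ± 0.27 for Ugt1a6a and -1.72 ± 0.39 for Gsto1, in the same direction as with that library. Calls were also lost without each other library, again with 1 group at 1 library. Of 18, 6 were kept without G1 replicate 1 (0.368% of all genes higher and 0.0866% lower), 6 without G2 replicate 1 (2.29% and 1.9%) and 4 without G2 replicate 2 (0.791% and 0.251%). Titles of the G1 libraries begin differently from those of G2, and what the titles stand for cannot be told apart from the allele.

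In the comparison with Control, 29 of 39 calls were kept without G1 replicate 2, when 13.8% of all genes were called higher and 11.5% lower. The calls lost were those of Sult2b1, Gsto1, Gsta3, Ugt2b5, Ugt1a7c, Ugt1a6b, Ugt2a3, Cyp2d26, Cyp2u1 and Cyp2b10. Cyp2e1 (-2.10 ± 0.37), Cyp2j13 (-1.95 ± 0.22), Ugt2b38 (-1.66 ± 0.46), Ugt3a2 (-1.67 ± 0.17), Sult1d1 (-0.75 ± 0.12) and Gstk1 (-1.57 ± 0.16) stayed lower, and Cyp2s1 (1.33 ± 0.22), Cyp4f18 (3.24 ± 0.65) and Gsta1 (2.39 ± 0.69) stayed higher. Without the 3 NA_-titled libraries, which leaves Control with 1 library assumed to vary like the other groups, 23 of 39 calls were kept (11.5% of all genes higher and 11.4% lower) and Cyp4a14, Gsta2, Ugt1a8, Ugt1a9 and Ugt1a10 were called in addition. Among the named members, the calls of Cyp2a4, Cyp2d12, Cyp2f2, Cyp3a11, Cyp4f14, Gsta3, Ugt1a7c, Ugt2b5 and Sult2b1 were lost. In that setting Cyp4b1 (-2.73 ± 0.46), Cyp2e1 (-2.91 ± 0.59), Cyp2j5 (-1.28 ± 0.21) and Ugt2b38 (-2.56 ± 0.47) stayed lower. In the comparison with wild type (single mutant), all 37 calls were kept without them, with 18.9% of all genes higher and 16.9% lower.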

How the data were processed

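The values the authors deposited are whole-number read counts for each gene, unnormalized. HTSeq 0.6.1 and STAR 2.4.1d, with Trim Galore, FastQC and CASAVA 1.8.2, and the build GRCm38 are named in the submitters' processing notes. Their settings, annotation release and strand were not given in the sources used here, so reads shared by near copies or antisense genes can be misassigned. Symbols, positions and exon lengths came from GENCODE M21 (46005 of 46517 IDs matched). Groups follow the genotype label; replicates were numbered by accession and form no pairs.

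The test was edgeR 4.0.16 (R 4.3.3): TMM, filterByExpr with minimum count 10, 1 quasi-likelihood fit of 4 group means over all 10 libraries (common biological coefficient of variation 0.249), Benjamini-Hochberg adjustment over 17823 genes and a threshold of 0.05. Standard errors come from the fold change and its F statistic. The code was tested on simulated data. Alternatives were DESeq2 1.42.0, limma 3.58.1 (voom), library totals alone, no filter but 1 count, a term for sex-linked expression, only the groups compared and each library left out. Near copies are members with at least 95% identical coding sequences, and shared windows are 100 bases of exon. Precision per library is set by depth (27596391 to 34815153 counts); intervals cover counting error only.

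The members and lists were chosen with earlier results of these data known. Named members were, against Control, up to 4 largest rises and 4 largest falls per family among called members with a mean of at least 1 CPM plus the 2 with the highest mean RPKM over all 10 libraries; in other comparisons, up to 5 each way or, with none called, the 3 lowest p-values; and up to 3 lowest p-values per list. Some results that the rule names are not reported here.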

Additional observations from a re-analysis of the deposited data

How the results depend on the processing

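Counts of called members stayed within 1.5 times under most settings. Without the NA_-titled libraries, a setting added after seeing the data, 19 members were lower against Control. Library totals alone gave 13 higher against wild type (single mutant). For G2 against G1, members higher numbered 17 with DESeq2, 2 with the sex term and 5 with only the groups compared; members lower numbered 0 with the sex term and 13 with only the groups compared. Leaving out 1 library gave 6 to 8 higher and 23 to 29 lower against Control, 6 to 9 and 25 to 31 against wild type (single mutant), 0 to 6 and 0 to 2 for G2 against G1, and 0 throughout between the reference groups. Of the 46 named calls, 4 changed sign, all when near copies were summed (a setting added after the planned protein comparison could not be run without a protein table): Cyp4a32 to 0.19, Gsta1 to -0.55 (Control) and -0.22 (wild type (single mutant)), and Ugt2b5 to -1.93. Cyp4a10 and Gstm1, never called where their sign changed, lie near 0 against Control in the main fit and changed sign under other settings. Without the NA_-titled libraries, Cyp4a10 gave 0.85 and Gstm1 gave -0.17 on the log2 scale. The sex term ended 16 of these calls and leaving out G1 replicate 2 ended 17; apart from near copies, the cause was not tested. The sex term is set for G1 replicate 2 alone, so the sex term and leaving that library out are not separate checks. No paired analysis was possible because the labels give no replicate numbers shared between groups. Groups of 2 or 3 libraries limit precision, and members under about 1 CPM rest on few counts.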
